A study of Rattus norvegicus with 13 samples.

Results

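Storage and release of triglyceride were followed through 10 genes in the left ventricle of rats overexpressing the β3-adrenergic receptor and of wild-type (WT) rats. They are the synthesis enzymes Dgat1 and Dgat2, the droplet coat genes Plin2, Plin4 and Plin5, the droplet fusion gene Cidea, and the lipase genes Pnpla2, Pnpla3, Lipe and Mgll. They were chosen by name from the noncontrol spots of the arrays, with earlier results of these data known. Of the 10 genes, 9 had spots under their name, on 11 probes, and Plin4 was not analysed here. All 11 probes passed the filter on dim signal, so the 9 genes stood among 15367 genes tested. Levels are on a log2 scale, the processed signal set against its array's 75th percentile, and since each probe has its own brightness, no gene's level is set against another's.

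All animals were males aged 45 weeks, and the tissue was left ventricle, which drives blood into the aorta. The first group carries the label ADBR3 and overexpresses the receptor, with 5 rats numbered by heart as 1, 3, 5, 6 and 7. The other group is WT, with 4 rats, hearts 1, 3, 4 and 6. The sources used here do not say how the receptor was overexpressed, in which cells, or in how many founder lines. The groups span 7 overexpressing and 6 WT arrays, because the RNA of rat 1 in each group was labelled again for another array (heart 2), and those arrays were averaged. The arrays overexpressing heart 4 and WT heart 5 are repeat hybridizations of a rat the labels do not match to another array, and they stayed out of the comparison. The labels give separate hearts but not separate litters or extraction days, so the p-values measure the spread between these rats.

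Heart muscle burns fatty acids and keeps a small reserve as triglyceride in lipid droplets. DGAT1 and DGAT2 add the last acyl chain that turns diacylglycerol into triglyceride, perilipins coat the droplet and control access of lipases, and CIDEA enlarges droplets by moving lipid between them. Breakdown runs in steps, from ATGL (Pnpla2) through hormone-sensitive lipase (Lipe) to monoacylglycerol lipase (Mgll). In adipocytes β3-adrenergic receptors raise cAMP, and protein kinase A then phosphorylates perilipin and hormone-sensitive lipase.

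The probes that carry the results are shown so that each value can be tied to the transcript stretch it read. The sequences are those of the deposited scanner files, 5′ to 3′. Of them 5 are whole probes of 60 bases, and for Dgat2, Pnpla3 and the brighter Cidea probe a stretch of 30 bases is given. Capitals mark the hexamer AATAAA, a polyadenylation signal.
Dgat2, A_42_P733209: ctggagattggcatcgtgaacacagctcag
Pnpla3, A_64_P103055: ctcaagcatggatatcacccatctctccac
Plin5, A_44_P511665: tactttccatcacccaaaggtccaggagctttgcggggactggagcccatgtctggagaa
Mgll, A_44_P268864: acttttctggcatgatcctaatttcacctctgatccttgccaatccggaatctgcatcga
Cidea, A_43_P22556: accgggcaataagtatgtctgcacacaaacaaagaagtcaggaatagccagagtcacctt
Cidea, A_64_P156333: cttgcatattgtAATAAAccaaacacaaga
Lipe, A_64_P338784: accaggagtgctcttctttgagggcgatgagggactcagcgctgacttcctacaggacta
Lipe, A_64_P023029: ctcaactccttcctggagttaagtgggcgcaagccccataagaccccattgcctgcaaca

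In the build the scanner files name, rn4, the whole Dgat2 probe lies at chr1:156447836-156447895 on the minus strand and the Pnpla3 probe at chr7:122171935-122171994 on the plus strand. The Plin5 probe is placed on unassigned sequence, at chrUn:25680868-25680927, and the Mgll probe at chr4:122904962-122905021. The Lipe probes lie at chr1:80672329-80672388 and chr1:80667084-80667143 on the minus strand, and start 1168 bases apart in the transcript. The 2 Cidea probes start at bases 331 and 853 of the transcript. The first covers chr18:63888076-63895390, a span of 7315 bases for a probe of 60, so its bases are not contiguous in the genome. The other covers chr18:63896918-63896975. The hexamer AATAAA stood in 3 of the 11 probes (those of Plin2, Pnpla2 and the brighter one of Cidea), and in 8.39% of all 30367 probes, searched on the probe's own strand.

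None of the 9 genes passed the threshold (0 with limma at a Benjamini-Hochberg adjusted p of 0.05 over all 15367 genes, smallest adjusted p = 0.348), where 1 gene in all did (0.00651% of those tested), the adenylate kinase gene Ak1. Probe by probe the count was 0 of 11, against 0.00569% of all 17587 probes. At an unadjusted p under 0.05 stood 4 of the 9, a count to be read against 9.44% of all genes and 9.2% of all probes. Higher in overexpressing rats were Dgat2, Plin5 and Pnpla3, against a background of 3.15% in that direction, and lower was Mgll, against 6.29%. The count ranged from 1 to 5 over the 23 alternatives. It was 1 without WT rat 1, without WT rat 3, without overexpressing rat 5 and with no filter on dim probes, and Dgat2 was then the gene left. It was 2 with a slide block, without WT rat 4 and without overexpressing rat 3, 6 or 7, each time Dgat2 and Mgll. On rats 1, 3 and 6 of each group alone the count was 1 (Dgat2), or 2 with heart number as a block (Dgat2 and Plin5). Mgll was not counted with median scaling, nor Pnpla3 with normexp and the 75th percentile or with the authors' deposited values. With median scaling that background turned to 951 genes higher and 568 lower, from 484 higher and 967 lower with the 75th percentile. Over the 9 genes the median difference was 0.082 and the median size of the difference 0.167, against -0.0089 and 0.0796 over all genes tested. Every probe of the 9 genes was well above background on all 13 arrays, except that of Pnpla3.

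**Figure D1:**
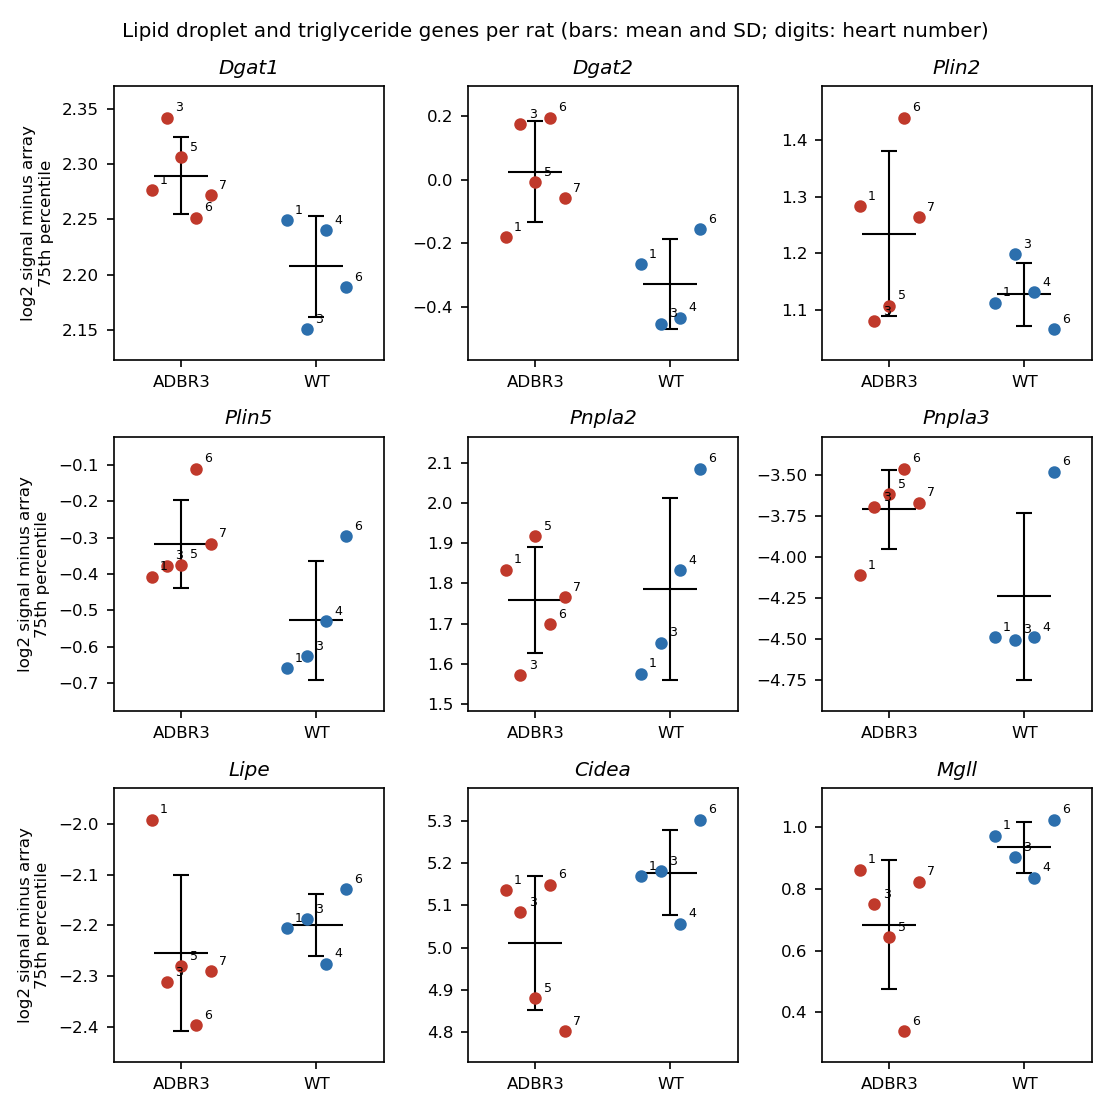
Level of each gene in each rat, as log2 signal minus the 75th percentile of the array, with the 5 overexpressing (ADBR3) rats left of the 4 WT rats, the heart number beside each point, and the mean and SD as bars. Each panel has its own axis. The Dgat2 points of 4 overexpressing rats lie above all WT points, and WT rat 6 stands far above the other WT rats for Pnpla3.

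Of the triglyceride synthesis enzymes, Dgat2, which encodes the endoplasmic reticulum enzyme that esterifies newly made fatty acids, measured -0.18, 0.17, -0.0082, 0.20 and -0.057 in overexpressing rats 1, 3, 5, 6 and 7. It measured, in WT rats 1, 3, 4 and 6, -0.27, -0.45, -0.43 and -0.16. Of the overexpressing rats 4 lay above every WT rat, and rat 1 lay just below WT rat 6. The mean was 0.025 ± 0.159 (SD, n = 5) in overexpressing and -0.33 ± 0.141 (SD, n = 4) in WT rats, so Dgat2 was 1.28-fold higher, by 0.35 on the log2 scale (95% confidence interval 0.13 to 0.57; limma, unadjusted p = 0.0053, Benjamini-Hochberg adjusted p = 0.348). Both labelings of a rat differed by 0.106 in overexpressing rat 1 and 0.055 in WT rat 1, less than the difference between groups. For every gene, the labelings of overexpressing rat 1 lay on slides 1 and 5 and on different scan days. Slide and day therefore enter that gap, while the labelings of WT rat 1 shared slide 1 and scan day 1. The repeat hybridizations, outside the comparison, read 0.19 for overexpressing heart 4 and -0.41 for WT heart 5.

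The Dgat2 difference was positive within each slide and scan day that held both groups. It was 0.084, 0.38 and 0.54 within slides 1, 3 and 4, and 0.39 and 0.40 within scan days 1 and 2. For these values the arrays of a rat within a slide or scan day were averaged first. Repeat hybridizations are included, each as a rat of its own, and the WT array of slide 4 is one of those. Overexpressing rat 1 is in both scan days, so these values are not independent. Slide 1 held 1 overexpressing and 3 WT arrays, and slide 3 held 1 of each. The slide 1 difference was smaller than the 0.106 between labelings of overexpressing rat 1, the rat on that slide. The other labeling of that rat, at -0.23 on slide 5, lay below the slide 1 WT mean of -0.21. A slide block gave 0.38. The unadjusted limma p of Dgat2 stayed under 0.05 in all 23 alternatives fitted, with differences of 0.31 to 0.41. Its adjusted p did so in none, and the smallest, 0.126, came with the repeat hybridizations counted as further rats.

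Dgat1, the enzyme that re-esterifies fatty acids taken up or released by lipolysis, was the 1 gene of the 9 whose groups did not overlap, as held for 3.52% of all genes tested (1.22% higher in overexpressing rats and 2.3% lower). It measured 2.28, 2.34, 2.31, 2.25 and 2.27 in overexpressing rats 1, 3, 5, 6 and 7, and 2.25, 2.15, 2.24 and 2.19 in WT rats 1, 3, 4 and 6. The lowest overexpressing rat, 6, exceeded the highest WT rat, 1, by 0.0020, while labelings of 1 rat differed by 0.052 (overexpressing) and 0.035 (WT). The groups stood apart under 3 of 6 scalings, and a slide block gave a difference of 0.043. The difference was 0.082, a 1.06-fold higher level (95% confidence interval -0.018 to 0.18; limma, Benjamini-Hochberg adjusted p = 0.579), on means of 2.29 ± 0.0351 (SD, n = 5) in overexpressing and 2.21 ± 0.046 (SD, n = 4) in WT rats.

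Of the droplet coat genes, Plin5, the perilipin of oxidative tissues that tethers droplets to mitochondria, measured -0.41, -0.38, -0.37, -0.11 and -0.32 in overexpressing rats 1, 3, 5, 6 and 7. WT rats 1, 3, 4 and 6 had -0.66, -0.62, -0.53 and -0.30. All overexpressing rats lay above WT rats 1, 3 and 4, and WT rat 6 lay above all overexpressing rats but rat 6. The mean was -0.32 ± 0.12 (SD, n = 5) in overexpressing and -0.53 ± 0.163 (SD, n = 4) in WT rats, a difference of 0.21 or 1.16-fold (95% confidence interval 0.0060 to 0.42; limma, unadjusted p = 0.0448, Benjamini-Hochberg adjusted p = 0.525). Plin5 has 1 spot per array, and the labelings of overexpressing rat 1, on different slides and scan days, differed by 0.367, more than the groups. The difference was -0.11 within slide 1 and 0.21 and 0.23 within slides 3 and 4, and a slide block gave 0.076.

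Plin2, the perilipin found on droplets of most cells, measured 1.28, 1.08, 1.11, 1.44 and 1.26 in overexpressing rats 1, 3, 5, 6 and 7, and 1.11, 1.20, 1.13 and 1.07 in WT rats 1, 3, 4 and 6. Overexpressing rats 1, 6 and 7 lay above all WT rats, and rats 3 and 5 within their range. The difference was 0.11 (95% confidence interval -0.068 to 0.28; limma, Benjamini-Hochberg adjusted p = 0.667). Without overexpressing rat 6 the Plin2 difference was 0.056, and within slides 1, 3 and 4 it was 0.21, 0.13 and 0.050. The SD was 0.146 in overexpressing rats and 0.0549 in WT rats, and labelings of 1 rat differed by at most 0.035.

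Cidea, which encodes a droplet protein best known from brown fat, was read by a pair of probes, as was Lipe. At the brighter probe, A_64_P156333, Cidea measured 5.14, 5.08, 4.88, 5.15 and 4.80 in overexpressing rats 1, 3, 5, 6 and 7. The values of WT rats 1, 3, 4 and 6 were 5.17, 5.18, 5.06 and 5.30. Overexpressing rats 5 and 7 lay below all WT rats, and the other overexpressing rats within the WT range. The difference was -0.17 (95% confidence interval -0.37 to 0.033; limma, Benjamini-Hochberg adjusted p = 0.574). It was -0.12, -0.25 and 0.048 within slides 1, 3 and 4, turning positive in the last, and a slide block gave -0.098.

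The Cidea probe that reads nearer the start of the transcript, A_43_P22556, has a single spot. There overexpressing rats 5 and 7 measured 3.00 and 2.98, against 3.29 to 3.54 in WT rats, and the remaining overexpressing rats lay between 3.42 and 3.56. Its difference was -0.15, within 0.013 of that at the brighter probe (limma over all probes, Benjamini-Hochberg adjusted p = 0.735). Left without overexpressing rat 7 or 5 it was -0.077 or -0.082, a slide block gave -0.071, and within slides 1, 3 and 4 it was -0.033, -0.31 and 0.0097. In the fit of rats 1, 3 and 6 of each group it was -0.0058. After subtracting group means, the probes deviated in the same direction in 8 of 9 rats.

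**Figure D2:**
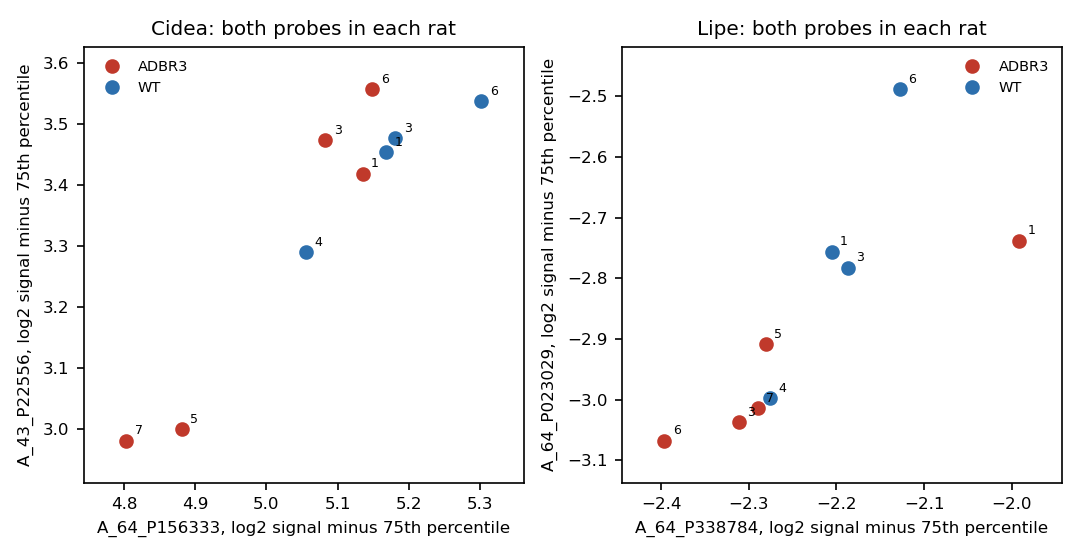
Both probes of Cidea (left) and of Lipe (right), with 1 point per rat, overexpressing (ADBR3) and WT, the heart number beside it, and log2 signal minus the 75th percentile on both axes. For Cidea, overexpressing rats 5 and 7 are lowest at both probes. For Lipe, overexpressing rat 1 is highest at A_64_P338784 but not at A_64_P023029.

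Among the lipases, Pnpla2 (ATGL), which takes the first fatty acid off triglyceride, measured 1.83, 1.57, 1.92, 1.70 and 1.77 in overexpressing rats 1, 3, 5, 6 and 7. WT rats 1, 3, 4 and 6 had 1.58, 1.65, 1.83 and 2.09. The overexpressing rats lay within or just below the WT range. The difference was -0.029 (95% confidence interval -0.28 to 0.22; limma, Benjamini-Hochberg adjusted p = 0.952), and it was positive, at 0.012, with median scaling.

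Lipe, the gene of hormone-sensitive lipase, which cleaves diacylglycerol, measured -1.99, -2.31, -2.28, -2.40 and -2.29 in overexpressing rats 1, 3, 5, 6 and 7 at the brighter probe, A_64_P338784. In WT rats 1, 3, 4 and 6 it measured -2.21, -2.19, -2.28 and -2.13. Of the overexpressing rats, 4 lay below all WT rats and rat 1 above them all. The difference was -0.055 (95% confidence interval -0.24 to 0.13; limma, Benjamini-Hochberg adjusted p = 0.844), and at 0.0036 with the authors' deposited values it changed sign. It was -0.12 without overexpressing rat 1, -0.019 without overexpressing rat 6 and -0.031 without WT rat 6. Within scan days 1 and 2 it was -0.11 and 0.11, and within slides 1, 3 and 4 it was 0.064, -0.014 and -0.20. Labelings of 1 rat differed by 0.223 in overexpressing rat 1 and by 0.27 in WT rat 1, more than the groups.

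At the other Lipe probe, A_64_P023029, the overexpressing rats measured -2.74, -3.04, -2.91, -3.07 and -3.01 and the WT rats -2.76, -2.78, -3.00 and -2.49. Overexpressing rat 1 was here the highest of its group too, but lay within the WT range. The difference was -0.20 (95% confidence interval -0.44 to 0.045; limma over all probes, Benjamini-Hochberg adjusted p = 0.596). With 1 rat left out it ranged from -0.28 (without WT rat 4) to -0.11 (without WT rat 6), and within scan days 1 and 2 it was -0.23 and 0.12. Within slides 1, 3 and 4 it was -0.28, -0.017 and -0.041. Labelings of overexpressing rat 1 differed by 0.332, more than the groups, and those of WT rat 1 by 0.014. The deviations from the group means had the same sign at both probes in 6 of 9 rats.

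Mgll, which encodes the lipase that releases the last fatty acid and also degrades the endocannabinoid 2-arachidonoylglycerol, measured 0.86, 0.75, 0.64, 0.34 and 0.82 in overexpressing rats 1, 3, 5, 6 and 7. In WT rats 1, 3, 4 and 6 it measured 0.97, 0.90, 0.84 and 1.02. Overexpressing rats 3, 5, 6 and 7 lay below every WT rat, and rat 1 lay above WT rat 4 only. The mean was 0.68 ± 0.209 (SD, n = 5) in overexpressing and 0.93 ± 0.0816 (SD, n = 4) in WT rats, a 1.19-fold lower level (difference -0.25, 95% confidence interval -0.49 to -0.013; limma, unadjusted p = 0.0407, Benjamini-Hochberg adjusted p = 0.513). The difference was -0.16 when overexpressing rat 6 was left out, and within slides 1, 3 and 4 it was -0.13, -0.014 and -0.36. Labelings of 1 rat differed by at most 0.020.

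Pnpla3, a relative of ATGL that acts on lipid droplets and retinyl esters in liver, had the dimmest probe of the 9 genes, well above background on 7 of 7 overexpressing and 5 of 6 WT arrays. It measured -4.11, -3.69, -3.62, -3.46 and -3.67 in overexpressing rats 1, 3, 5, 6 and 7. In WT rats 1, 3, 4 and 6 it measured -4.49, -4.50, -4.49 and -3.48. All overexpressing rats lay above WT rats 1, 3 and 4, and WT rat 6 lay above all but overexpressing rat 6. The mean was -3.71 ± 0.242 (SD, n = 5) in overexpressing and -4.24 ± 0.508 (SD, n = 4) in WT rats, a difference of 0.53 or 1.44-fold (95% confidence interval 0.019 to 1.04; limma, unadjusted p = 0.0435, Benjamini-Hochberg adjusted p = 0.521).

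The Pnpla3 difference varied in size between settings. It was 0.18 with normexp and the 75th percentile, 0.27 with normexp and quantile normalization, and 0.21 with the authors' deposited values. Without WT rat 6 it was 0.78. Within slide 1, where that rat was hybridized, it was -0.19, against 0.82 and 0.59 within slides 3 and 4.

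**Figure D3:**
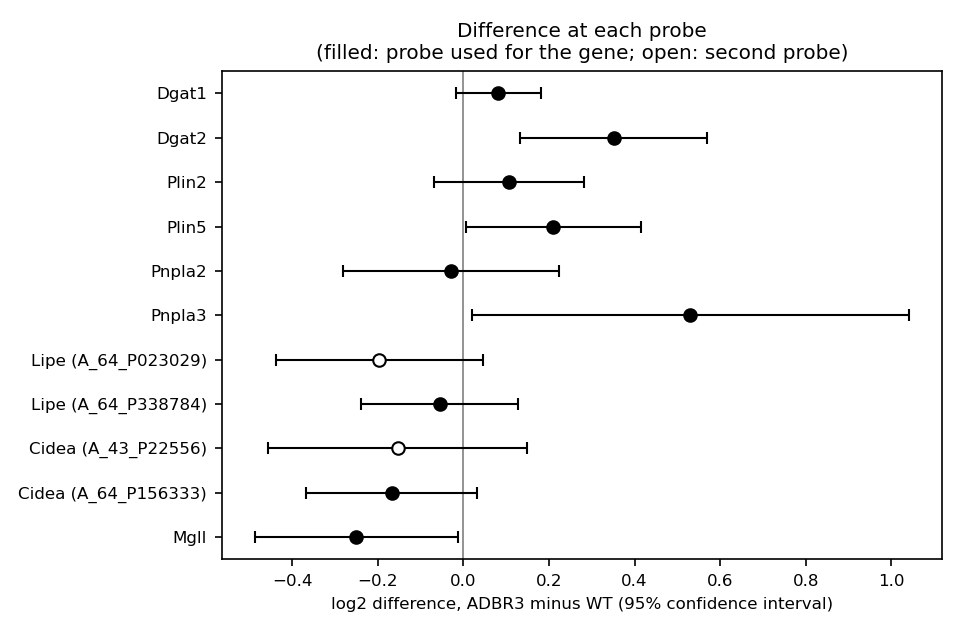
Log2 difference, overexpressing (ADBR3) minus WT, at each of the 11 probes, with 95% confidence intervals from limma. The intervals of Dgat2, Plin5, Pnpla3 and Mgll do not include 0, and after adjustment over all genes none of them passed.

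Across hearts of the same group the genes showed no shared order that passed the test. Of 36 pairs of the 9 genes, with group means subtracted and rats permuted within groups, 0 passed after Benjamini-Hochberg adjustment (smallest adjusted p = 0.225, exact permutation) and 3 had an unadjusted p under 0.05. Pairs of other genes were not tested, so that count of 3 has no share over all genes beside it. For Plin5 and Pnpla3, Pearson's r was 0.85 over 9 rats (exact two-sided permutation p = 0.00625, adjusted p = 0.225) and Spearman's rho 0.77 (exact permutation p = 0.01875, adjusted p = 0.338). For Dgat2 and Pnpla3, r was 0.73 (exact permutation p = 0.0135, adjusted p = 0.244) and rho 0.87 (exact permutation p = 0.0076, adjusted p = 0.275). Dgat1 and Plin2 ran opposite, with r = -0.69 (exact permutation p = 0.0247, adjusted p = 0.296) and rho = -0.72 (exact permutation p = 0.034, adjusted p = 0.408). Without the 2 rats farthest from the median of the first gene, r was 0.46, 0.53 and -0.60 for these pairs. For both pairs with Pnpla3 those were overexpressing rat 6 and WT rat 6. Among the 6 rats scanned on day 1, r was 0.91, 0.80 and -0.62 (exact permutation p = 0.0556, 0.139 and 0.111), and day 2 held 4 rats, too few for a value.

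The genes most like each of the 9 across the 9 rats, by Pearson's r after subtracting group means, reached r of 0.94 to 0.98 among 15367 genes. Those of Dgat2 were the unnamed feature A_64_P037491 (r = 0.98) and the cytochrome P450 gene Cyp2t1 (r = 0.98). Pnpla2 ran closest to Gtf2f1, a general transcription factor gene (r = 0.98), and Irs2, an insulin receptor substrate gene (r = 0.96). Plin2 ran closest to the feature A_64_P079759 (r = 0.98) and to Rab13, a small GTPase gene (r = 0.97). For Mgll they were Zbtb8b (r = 0.97) and Ehmt1, a histone methyltransferase gene (r = 0.96), and for Cidea Ifitm7 (r = 0.98) and RGD1561113 (r = 0.97). For Dgat1 they were the granzyme gene Gzmc (r = 0.98) and A_64_P014418 (r = 0.94), and for Pnpla3 Nhp2 (r = 0.98) and A_64_P040210 (r = 0.97). For Lipe they were RGD1564091 (r = 0.97) and Nanos3 (r = 0.94), and for Plin5 TC647523 (r = 0.96) and LOC498122 (r = 0.96). All these genes were picked as the highest of many correlations over only 9 rats, and none of these correlations was tested.

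The rest of the pathway was read from lists of other genes, whose counts stand beside the shares over all genes tested, 9.44% at an unadjusted p under 0.05, 3.15% higher and 6.29% lower. Of 25 further triglyceride synthesis genes 20 were tested, of which 10 were higher and 10 lower in overexpressing rats, with a median difference of -5.2e-05 and none past the threshold (0 with limma, 1 at an unadjusted p under 0.05). That 1 was Gpd1l, a glycerol-3-phosphate dehydrogenase family gene, at -2.87 ± 0.106 (SD, n = 5) in overexpressing and -2.57 ± 0.217 (SD, n = 4) in WT rats (limma, Benjamini-Hochberg adjusted p = 0.44). Plpp1, a lipid phosphatase gene listed as Ppap2a, and the acyltransferase gene Agpat2 were 0.10 and 0.13 higher, and Acsl4, which activates fatty acids, was 0.13 lower.

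Of 22 further lipid droplet proteins 18 were tested, 10 higher and 8 lower, with a median of 0.019 and none past the threshold (0 with limma and 0 at an unadjusted p under 0.05). The smallest p values belonged to Mettl7a, Fitm2, Hsd17b11 and Faf2. Fitm2, which helps droplets bud from the endoplasmic reticulum, was 0.14 higher, Mettl7a and the droplet dehydrogenase gene Hsd17b11 were 0.15 and 0.10 higher, and Faf2 was 0.092 lower. The groups of Aup1, named after its values were seen, did not overlap, with a difference of 0.071 (limma, Benjamini-Hochberg adjusted p = 0.599), as held in that direction for 1.22% of all genes. Plin1 and Cidec, the adipocyte forms of perilipin and of CIDE protein, were well above background in too few rats to be tested.

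Of 22 further lipolysis genes 16 were tested, 11 higher and 5 lower, with a median of 0.087 and none past the threshold (0 with limma). At an unadjusted p under 0.05 stood 4 higher, beside 3.15% of all genes, and 1 lower, beside 6.29%. Dagla, a diacylglycerol lipase gene, was at -2.63 ± 0.157 (SD, n = 5) in overexpressing and -2.95 ± 0.163 (SD, n = 4) in WT rats, 0.32 higher (limma, unadjusted p = 0.0111, Benjamini-Hochberg adjusted p = 0.407). Daglb, another such gene, named after its values were seen, was 0.39 higher (limma, unadjusted p = 0.0462, Benjamini-Hochberg adjusted p = 0.526). The adenosine receptor gene Adora1 and the protein kinase A catalytic subunit gene Prkacb were 0.20 and 0.22 higher, and Lipa, the lysosomal acid lipase gene, was 0.25 lower. The ATGL inhibitor gene G0s2 and its coactivator gene Abhd5, named here after their values were seen, differed by -0.21 and -0.025 (adjusted p = 0.636 and 0.954).

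Of 20 PPAR target genes of heart muscle, genes that fatty acids induce through nuclear receptors, all 20 were tested, 9 higher and 11 lower, with a median of -0.011 and none past the threshold (0 with limma, 1 at an unadjusted p under 0.05). Vldlr, a receptor for triglyceride-rich lipoproteins, was 0.31 lower (limma, unadjusted p = 0.00676, Benjamini-Hochberg adjusted p = 0.373). Its overexpressing rats lay between -2.42 and -2.33 and its WT rats between -2.28 and -1.82, so these groups did not overlap, as held in that direction for 2.3% of all genes. Cpt1b, the muscle form of the enzyme that admits fatty acids to mitochondria, was 0.081 higher.

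**Figure D4:**
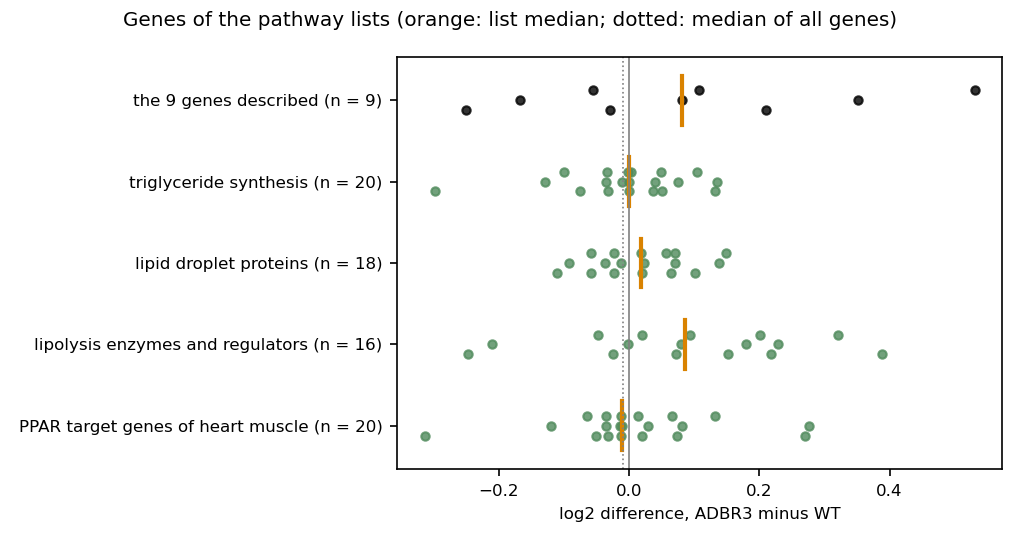
Log2 difference, overexpressing (ADBR3) minus WT, of each tested gene, 1 point per gene, for the 9 genes described and 4 lists of further genes, with list medians in orange and the median of all 15367 genes dotted. The list medians lie between -0.011 and 0.087, and the point farthest right is Pnpla3 at 0.53.

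The tissue and its possible admixtures were read from marker lists. All 13 cardiomyocyte markers were well above background, with a summed signal of 3656 to 4039 times the array's 75th percentile in overexpressing and 3316 to 4126 times in WT rats. Of 20 adipocyte markers 10 were tested, with none past the threshold and a summed signal of 26.1 to 30.8 in overexpressing and 25.1 to 29.0 in WT rats. Of those tested, 8 were higher and 2 lower in overexpressing rats, with a median difference of 0.17. At an unadjusted p under 0.05 (limma) stood 0 of them, beside 9.44% of all genes. Lep, Plin1, Cebpa and Tusc5 were not well above background on any of the 13 arrays (0). Adipoq, the adiponectin gene, named like Retn, Rbp4 and Thrsp after its values were seen, varied widely, at -2.59, -3.15, -1.66, -0.46 and -6.53 in overexpressing rats 1, 3, 5, 6 and 7, and -4.12, -2.85, -2.72 and -2.71 in WT rats 1, 3, 4 and 6. In bulk tissue, fewer cells of a type and less RNA per cell cannot be told apart.

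Overexpressing rat 6 had the highest summed adipocyte signal of all rats, at 30.8, and WT rat 6 the highest of its group, at 29.0. Those sums are carried by the brightest of the probes, those of Fabp4, Gpd1, Aqp7 and Cfd. Adipoq, Retn, Rbp4 and Thrsp were also highest in overexpressing rat 6, at -0.46, -0.32, -0.12 and -1.76. In WT rat 6 they were at -2.71, -2.18, -2.25 and -3.75, and Adipoq in WT rat 4 was at -2.72, while the others lay below the highest WT rat. The summed atrial marker signals of overexpressing rat 6 and WT rat 6 were 423 and 268, and their summed macrophage marker signals 28.5 and 30.7, in both cases the highest of each group. The summed fibroblast marker signal was highest of its group in overexpressing rat 6, at 140.1, and lowest of its group in WT rat 6, at 103.8. Overexpressing rat 6 was also the highest rat for Dgat2, Plin2, Plin5, Pnpla3 and the Cidea probe A_43_P22556. It was the lowest for Mgll and, at both probes, for Lipe (-2.40 and -3.07). Without it the differences were 0.31 for Dgat2, 0.056 for Plin2, 0.16 for Plin5, 0.47 for Pnpla3 and -0.16 for Mgll, and 2 of the 9 genes, Dgat2 and Mgll, kept an unadjusted p under 0.05, against 8.69% of all genes. Overexpressing rat 7, where Adipoq was lowest, lay above all WT rats for Dgat2 and below them all for Mgll. The part of other cell types in these differences was not tested.

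**Figure D5:**
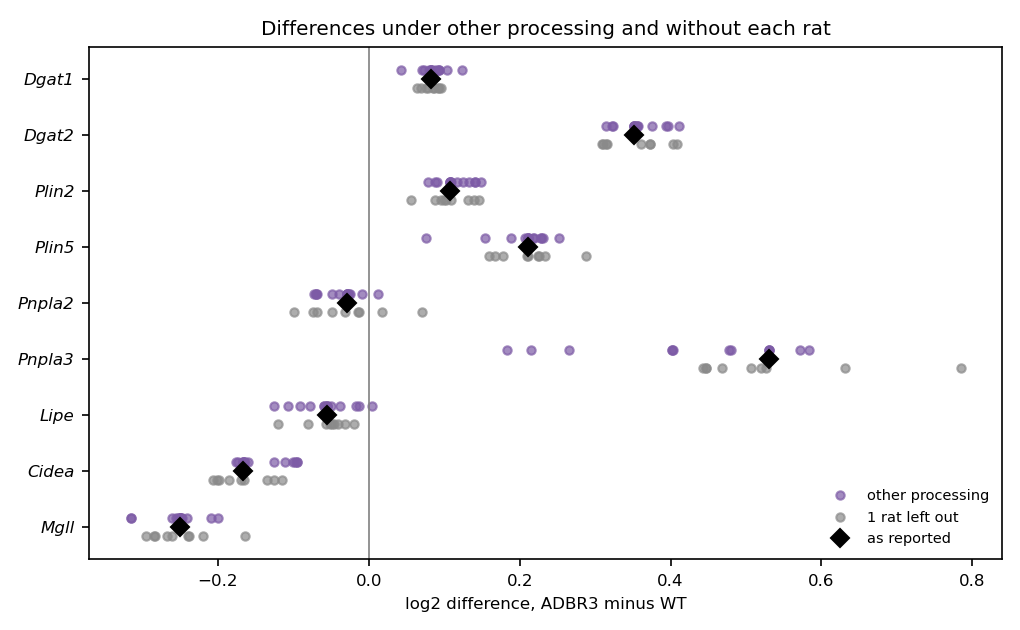
Log2 difference, overexpressing (ADBR3) minus WT, of each gene as reported (diamond), under other processing (upper points) and with 1 rat left out (lower points). Dgat2 stays between 0.31 and 0.41, while Pnpla3 ranges from 0.18 to 0.78 and Pnpla2 and Lipe reach across 0.

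The rat's own Adrb3 gene, which encodes the β3-adrenergic receptor, gave a signal well above background on 1 of 7 overexpressing and 0 of 6 WT arrays. It averaged -5.96 ± 1.22 (SD, n = 5) in overexpressing and -6.44 ± 0.445 (SD, n = 4) in WT rats (exact two-sided permutation p = 0.532, the smallest p the design allows being 0.00794). Overexpressing rat 6 was highest, at -4.10, and without that rat the difference was 0.011 (exact two-sided permutation p = 0.971). The labels do not give the sequence introduced, so the probe does not check them. The 75th percentile of the processed signal was 761 to 896 on overexpressing and 760 to 909 on WT arrays, and the share of spots well above background was 61.5% to 65.5% on overexpressing and 55.2% to 67.8% on WT arrays.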

How the data were processed

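The authors deposited scanner files with spot intensity from Agilent Feature Extraction 10.7.1.1 on design 028279, background-subtracted and detrended within each array, per the file headers. The authors also deposited natural log values for the series, used here as an alternative, and no header or label states how the arrays were scaled. From the processed signal of 58717 spots on 13 arrays, log2 minus the array's 75th percentile was taken, and spots of a probe and labelings of a rat were averaged. Spots marked as outliers were left out where another spot remained. Probes well above background in fewer than 4 of 9 rats were dropped, and the brightest remaining probe stood for a gene. The comparison between groups used limma 3.58.1 (lmFit, eBayes; R 4.3.3 and the data.table package, version 1.17.8), Benjamini-Hochberg adjusted over 15367 genes or 17587 probes at 0.05, and single values with exact permutation. The fit was tested on simulated data. Python 3.11.15, pandas 2.3.3, numpy 2.4.6 and matplotlib 3.10.9 were used for tables and plots.

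The genes and lists were chosen with earlier results of these data known. Named were the 10 genes, the 4 of each pathway list with the smallest p (some of them not reported here), marker genes, Adrb3, and the 2 most similar genes of each of the 9. Array numbers limit the precision. Alternatives were other scalings, normexp with an offset of 50, the authors' values, filters, mean of probes, repeat hybridizations, variance model, slide, scan day, heart number as a block, and each rat left out. Lists of macrophage, fibroblast and endothelial markers had 10 tested genes each, with none past the threshold and medians of -0.13, 0.13 and -0.038.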

Additional observations from a re-analysis of the deposited data

Results flagged for a closer look

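In 24 groups of 4 or 5 rats (11 probes of the 9 genes and that of Adrb3), 2 had a rat far from the others by Dixon's test, where chance gives about 1 in 20. For Pnpla3, WT rat 6 measured -3.48, against -4.49 for the next highest WT rat. For Lipe at A_64_P338784, overexpressing rat 1 measured -1.99, against -2.28 for the next highest of its group, and the labelings of that rat differed by 0.223.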

How the results depend on the processing

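Of 250 refitted differences (9 genes and the other probes of Cidea and Lipe), 246 kept their direction and none passed the threshold (0). The direction turned for Pnpla2 with median scaling (0.012), without WT rat 6 (0.070) and without overexpressing rat 3 (0.017), and for Lipe with the authors' values (0.0036). The cause was not tested. Without each rat in turn, Pnpla2 ranged from -0.10 to 0.070. No gene of the 9, probe of theirs or listed gene passed in any alternative run (0), nor did any pair of the 9 under other scalings or with a rat left out, the alternatives run for pairs. Genes past the threshold over the whole array were 1 as reported and 2 with normexp and either scaling, with the authors' values and with slide as a block. They were 6 with repeat hybridizations added, 8 with trended and robust variance, 5 with scan day as a block, and 0 to 13 with 1 rat left out. They were 13 without overexpressing rat 3, 2 without overexpressing rat 5 or WT rat 1, 1 without overexpressing rat 1, and 0 without overexpressing rat 6 or 7 or WT rat 3, 4 or 6. With repeat hybridizations added, or with slide or scan day as a block, each repeat hybridization counted as a separate rat. The labels do not name its rat, so the number of rats in those fits may be overstated.

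The groups share heart numbers 1, 3 and 6, which pair no animals by the labels. Deviations of same-numbered rats correlated by 0.106, 0.035 and 0.12, and those of differently numbered rats by -0.13 to 0.065. On these rats 0 genes passed with the heart number as a replicate block and 0 without it. The difference of Dgat2 was 0.35 in both fits. The strict filter left Pnpla3 out.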
